A study of Mus musculus with 8 samples.

Results

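The replication-dependent histone genes are the RefSeq genes of assembly GRCm38.p6 whose symbol begins Hist1h, Hist2h, Hist3h or Hist4h. The gene table lists most of them under current symbols, such as H1f4 for Hist1h1e, and the older names were matched through its synonyms. This gave 70 genes of the 49943 nuclear RefSeq genes: 6 for the linker histone H1, 20 for H2A, 19 for H2B, 12 for H3 and 13 for H4. Their occupancy and contacts were read from RNA polymerase II (Pol II) ChIA-PET of whole liver from wild type C57BL/6 mice of 3 to 6 months, kept with 12 hours of light and free access to food. Livers were taken at ZT06 or ZT18, that is 6 or 18 hours after lights on, and chromatin of 3 to 7 livers was pooled for a precipitation with the antibody 8WG16, which binds the repeat tail of the largest Pol II subunit. Of the 8 libraries, 4 belonged to experiment 1 (2 at each time), 2 to experiment 2 and 2 to experiment 3 (1 at each time). Experiments 1 and 3 were crosslinked with 1.5 mM EGS and 1% formaldehyde, and experiment 2 with 1% formaldehyde alone.

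Histones package DNA into nucleosomes, whose core holds H2A, H2B, H3 and H4, while H1 binds the linker DNA between cores. Replication-dependent histone genes are short, mostly lack introns, lie in clusters, and are transcribed mainly in S phase, when new DNA has to be packaged. Their messages end in a stem-loop in place of a poly(A) tail, and the coactivator NPAT gathers with their promoters in a nuclear body. Most adult hepatocytes are outside the cell cycle.

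ChIA-PET joins DNA ends held in one precipitated complex and sequences a short tag from each, as a paired-end tag (PET). Experiments 1, 2 and 3 held 474478, 1438866 and 840210 PETs. The deposited rows name an experiment but no library or time point, so each experiment is a pool of day and night, there is no spread between replicates, and day against night was not analysed here. Values are ends of PETs within a gene and 1 kb either side. The relative density divides them by the number expected if all nuclear ends were spread evenly, so that 1 is the nuclear mean; that mean was 0.349, 1.06 and 0.616 ends per kb. Combined values sum the ends of the 3 experiments. Intervals are 95% (exact Poisson, or conditional binomial for ratios) and cover counting error only. They treat ends as independent, but 165 of the 1123 PETs on histone genes lay at most 8 kb apart with both ends on these genes, so intervals over ends are too narrow. In bulk tissue, fewer cells that use a gene and less Pol II per cell cannot be told apart. The labelled tissue carried the hepatocyte genes: Alb, Apoa1, Apoa2, Ttr, Tat and Cps1 had combined densities of 3.98 to 42.1, against 0.503 to 1.81 for 9 markers of endothelial, immune, stellate and bile duct cells.

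The genes fall into 8 groups separated by more than 100 kb. The Hist2 cluster on chromosome 3 holds 10 genes, Hist4h4 lies alone on chromosome 6, and the Hist3 cluster on chromosome 11 holds 3. On chromosome 13, Hist1 subcluster A spans 19 genes from Hist1h2bl (first base 21715711) to Hist1h2br (last base 21837530), and subcluster B spans 5 genes from 22035122 to 22043658. Subcluster C holds 29 genes from Hist1h4h (23531044) to Hist1h1a (23764412). Subcluster D is the pair Hist1h2ba and Hist1h2aa (23933725 to 23934913), and the pseudogene Hist1h2al lies apart at 51200084. The windows of 56 genes overlap that of another, many of them in head-to-head H2A and H2B pairs, so the 70 windows merge into 37 regions of 200 kb in all. Sums use merged regions, in which no end counts more than once, although a stretch shared by 2 classes counts in both.

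The promoters of 6 genes are printed because these genes mark the extremes of the data: Hist1h1e, Hist1h4c, Hist2h3b and Hist4h4 lead their class or group, and Hist1h2bq and Hist1h2br held no end. Each line is the 250 bases before the annotated start, written 5′ to 3′ on the gene's strand, from RefSeq promoter windows of GRCm38.p6. Capitals mark the 3 motifs described after the sequences, in either orientation, so that a CCAAT box of the other strand is in capitals as its reverse complement. In the same order the stretches are chr13:23622559-23622808 (minus strand), chr13:23698459-23698708 (minus), chr3:96268404-96268653 (plus), chr6:136804432-136804681 (minus), chr13:21810200-21810449 (minus) and chr13:21833493-21833742 (plus).
Hist1h1e: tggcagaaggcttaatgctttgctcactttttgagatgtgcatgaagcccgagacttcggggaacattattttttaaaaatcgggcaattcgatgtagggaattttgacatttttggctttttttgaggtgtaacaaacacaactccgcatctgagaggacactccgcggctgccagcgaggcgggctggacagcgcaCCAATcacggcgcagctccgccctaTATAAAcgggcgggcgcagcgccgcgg
Hist1h4c: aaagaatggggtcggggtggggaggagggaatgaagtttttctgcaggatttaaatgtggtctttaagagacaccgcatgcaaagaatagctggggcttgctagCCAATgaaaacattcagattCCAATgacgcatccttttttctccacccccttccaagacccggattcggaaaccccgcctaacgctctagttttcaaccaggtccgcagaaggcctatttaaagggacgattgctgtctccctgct
Hist2h3b: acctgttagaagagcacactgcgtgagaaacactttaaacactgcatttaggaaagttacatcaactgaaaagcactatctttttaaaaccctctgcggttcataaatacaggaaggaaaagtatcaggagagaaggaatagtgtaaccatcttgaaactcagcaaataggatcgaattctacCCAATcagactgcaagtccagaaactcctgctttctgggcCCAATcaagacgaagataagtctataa
Hist4h4: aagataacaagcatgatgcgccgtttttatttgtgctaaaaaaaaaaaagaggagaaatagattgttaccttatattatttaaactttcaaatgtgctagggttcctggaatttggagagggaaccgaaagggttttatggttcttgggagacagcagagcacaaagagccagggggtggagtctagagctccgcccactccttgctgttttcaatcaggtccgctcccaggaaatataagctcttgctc
Hist1h2bq: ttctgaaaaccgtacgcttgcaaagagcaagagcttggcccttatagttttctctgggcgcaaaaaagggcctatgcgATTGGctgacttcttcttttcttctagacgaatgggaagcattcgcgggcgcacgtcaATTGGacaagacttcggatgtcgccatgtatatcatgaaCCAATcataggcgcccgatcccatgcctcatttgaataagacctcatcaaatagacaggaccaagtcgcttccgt
Hist1h2br: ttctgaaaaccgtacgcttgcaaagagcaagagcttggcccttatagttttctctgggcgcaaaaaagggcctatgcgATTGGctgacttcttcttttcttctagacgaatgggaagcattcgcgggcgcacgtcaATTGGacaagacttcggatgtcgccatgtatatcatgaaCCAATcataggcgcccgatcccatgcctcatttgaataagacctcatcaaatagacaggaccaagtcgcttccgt

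Hist1h1e has CCAAT with its first base at -52 and TATAAA at -27, counted back from the start. Hist1h4c has CCAAT at -146 and -126, Hist2h3b has it at -67 and -27, and Hist4h4 has none of the 3 motifs in this stretch. The Hist1h2bq and Hist1h2br stretches differ at 0 of 250 bases.

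Promoter windows of 300 bases (250 before and 50 after the start) were found for 62 of the 70 genes, and motifs were sought on both strands. TATAAA, a form of the TATA box, was in 35 of the 62 (56.5%), against 14.2% of all 27025 promoter windows. CCAAT, the core of the box bound by NF-Y, was in 53 (85.5%), against 37.9% of all windows. It was in every window of the classes H1 (6), H2A (18), H2B (16) and H3 (10), but in 3 of 12 H4 windows. The octamer ATTTGCAT, which POU factors such as OCT1 recognise, was in 13 (21.0%), against 1.75% of all windows. These 13 were 7 H2A and 6 H2B windows and no H1, H3 or H4 window. In 10 cases the windows of an H2A and an H2B gene overlap, so one motif copy can count for both. A match is a string of letters and not a measured site.

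Pol II ChIA-PET ends were denser over the histone genes than over the nuclear genome in each experiment. The 37 merged regions held 437, 461 and 391 ends in experiments 1, 2 and 3. Relative densities were 6.26 (5.69 to 6.88), 2.18 (1.98 to 2.39) and 3.17 (2.87 to 3.50), or 3.18 (3.01 to 3.36) combined. The intervals of the experiments do not overlap, and the formaldehyde-only pool had the lowest value. With 1 such pool, crosslinking and experiment cannot be told apart. Without experiment 1 the combined value was 2.54, and without experiment 2 it was 4.29.

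By gene, 40 of the 70 had at least 2 times the nuclear mean combined. Of all nuclear genes 12.2% did, of protein-coding genes 17.5%, and of those no longer than the longest histone gene model 23.8%. Of protein-coding genes of at most 1 kb, which are closer to histone genes in length and include them, 7.61% did. Of these 1577 short genes, 322 had no end. The same shares are the background for the counts by class and group below. The windows of 56 of the 70 histone genes overlap that of another, so the 40 do not count separate ends. In experiments 1, 2 and 3 the counts were 47, 27 and 42 of 70, against 21.4%, 8.05% and 20.4% of all genes, and 24 of 70 passed in each experiment, against 4.40%. The lower limit lay above the nuclear mean for 41 of 70, against 33.1% of all genes, whose mostly longer windows give narrower intervals. The median histone gene had a density of 4.68, 1.52 and 2.65 in experiments 1, 2 and 3, where the median of all genes was 0.988, 1.11 and 1.20. At the other end, 6 of 70 had no end in any experiment, against 7.02% of all genes. Across the 70 genes, Spearman's rho between experiments was 0.771 (1 and 2), 0.758 (1 and 3) and 0.722 (2 and 3), as a description only, since neighbours share ends. Over the 37 regions, which share none, rho was 0.793, 0.744 and 0.698.

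**Figure D1:**
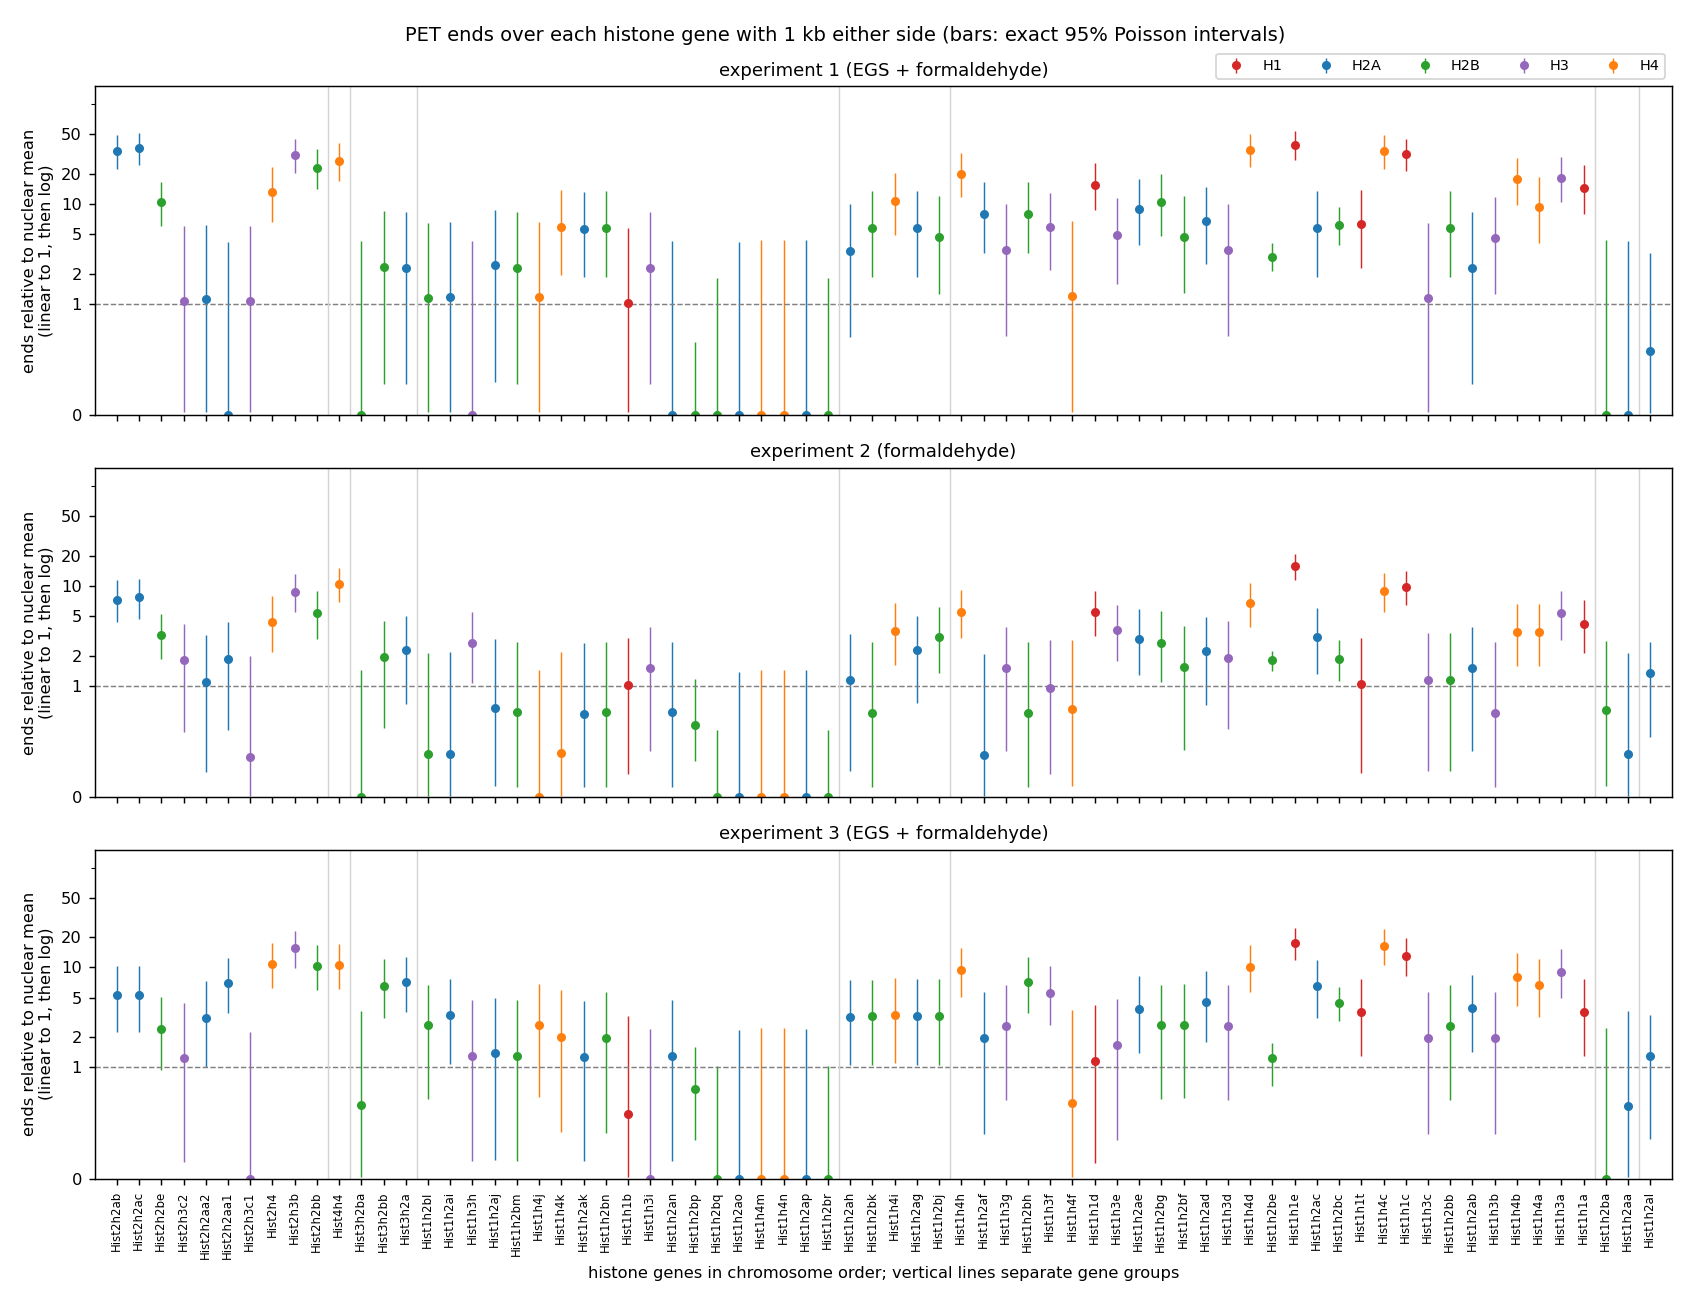
Relative density of PET ends (vertical axis, linear to 1 and logarithmic above, 1 being the nuclear mean) over each of the 70 histone genes with 1 kb either side, in chromosome order, 1 panel per experiment. Points are genes coloured by class and bars are exact 95% Poisson intervals. Hist1h1e is the highest point in each panel, and the 6 genes at 0 in all panels lie in Hist1 subcluster A.

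The linker histone genes were the densest class in the combined counts. Their windows held 104, 108 and 67 ends in experiments 1, 2 and 3, where 5.77, 17.5 and 10.2 were expected. The intervals of the relative density were 14.7 to 21.8, 5.06 to 7.45 and 5.09 to 8.35, and the combined value was 8.34. Hist1h1e, whose product is the linker histone H1.4, ranked first of the 70 in each experiment. It held 38, 46 and 30 ends where 0.970, 2.94 and 1.71 were expected, a combined density of 20.3 (16.7 to 24.4). Hist1h1c, which encodes H1.2, held 30, 28 and 22 ends (14.5, 11.5 to 18.1). Both are thus high in the 3 pools alike.

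Hist1h1d, for H1.3, held 15 and 16 ends in experiments 1 and 2 but 2 in experiment 3. Its densities were 15.5 (8.68 to 25.6), 5.45 (3.12 to 8.85) and 1.17 (0.142 to 4.23), and 5.88 combined. The intervals of experiments 2 and 3 overlap, and 18 of its 33 ends came from PETs at most 8 kb apart. Hist1h1a, for H1.1, had 14, 12 and 6 ends (5.77 combined). Hist1h1b, for H1.5, is the one H1 gene in subcluster A and had 1, 3 and 1 ends (0.885, 0.287 to 2.07). Hist1h1t, the testis H1 gene, had 6, 3 and 6 ends (2.71, 1.52 to 4.48). Its window overlaps that of Hist1h4c.

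H4 genes came next, with 13.4, 3.65 and 6.21 in the 3 experiments and 6.12 (5.53 to 6.76) combined. H4 genes encode a nearly invariant core protein, and their densities ran from 0 to 15.4. Hist1h4c had 28, 22 and 24 ends (15.4, 12.1 to 19.4). Hist4h4, the lone gene on chromosome 6, had 23, 27 and 16 (13.4, 10.4 to 17.0). Hist1h4d had 29, 17 and 15 (12.6, 9.61 to 16.1). The intervals of these 3 genes overlap, so their order is not resolved by the counts. Hist2h4 had 11, 11 and 16 ends (7.89). At least 2 times the nuclear mean was reached by 8 of 13 H4 genes combined, and 8 reached it in all 3 experiments at once.

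H3 genes had 3.50 (3.05 to 4.00) combined, with 6 of 12 at 2 times the mean or more. Hist2h3b had 27, 23 and 24 ends (14.6, 11.5 to 18.4), Hist1h3a had 16, 14 and 14 (8.70), and Hist1h3f had 6, 3 and 10 (3.24).

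H2A genes had 2.52 (2.22 to 2.84) combined, with 11 of 20 at 2 times the mean or more. The highest were Hist2h2ac with 31, 20 and 8 ends (11.8) and Hist2h2ab with 29, 19 and 8 (11.2). These neighbours lie tail to tail and their windows overlap over most of their length. Hist1h2ac had 5, 8 and 10 ends (4.58, 2.90 to 6.86).

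H2B genes had 1.99 (1.82 to 2.18), with 10 of 19 at 2 times the mean or more. The class includes 3 gene models over 8 kb, Hist1h2be (37455 bp), Hist1h2bp (14079 bp) and Hist1h2bc (8282 bp). The 13 H2B genes under 1 kb had 2.85 (2.46 to 3.30). Hist2h2bb led with 20, 14 and 16 ends (9.92), ahead of Hist2h2be with 17, 16 and 7 (4.24) and Hist1h2bg with 9, 7 and 4 (4.02). Hist1h2be, the gene with the most ends of all (41, 75 and 30), had a density of 1.83 over its long window. That window overlaps those of Hist1h4d and Hist1h1e, and 100 of its 146 ends lay in the gene body.

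Most differences between classes exceeded counting error, which does not include the spread between genes of a class. H1 genes ran from 0.885 to 20.3 with a median of 5.82, and H4 genes from 0 to 15.4 with a median of 5.44. The medians of H2A, H2B and H3 genes were 2.17, 2.37 and 1.99. Of the 279 ends in H1 windows, Hist1h1e held 114 and Hist1h1c held 80. H1 windows were denser than H2A windows by a factor of 3.31 (2.79 to 3.94) and H4 windows were denser than H3, at an H3 to H4 ratio of 0.572 (0.483 to 0.677). H1 against H4 was 1.36 (1.16 to 1.59) combined but 1.06 (0.772 to 1.44) in experiment 3. H2A and H2B genes under 1 kb had overlapping intervals, at 2.66 (2.34 to 3.02) and 2.85 (2.46 to 3.30), in the reverse order of the whole classes. Class and position are mixed, since 5 of 6 H1 genes lie in subcluster C. Within that subcluster alone, and with models under 1 kb, H1 had 9.85, H4 8.43, H2A 3.42, H3 3.27 and H2B 3.22, so the H1 and H4 genes were the densest there too.

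Within the genes themselves, H1 and H4 bodies had 11.4 and 9.77 times the nuclear mean, against 2.35, 2.89 and 2.24 for H2A, H2B and H3 bodies under 1 kb. A few genes held most of these ends in each class. The 3 fullest bodies held 86 of 105 ends in H1, 65 of 106 in H4, 23 of 45 in H2A, 27 of 36 in H2B and 29 of 32 in H3. Without them, H1 bodies held 19 ends where 4.60 were expected at the nuclear mean, and H4 bodies 41 against 8.39. H2A bodies held 22 against 16.1, H2B bodies 9 against 9.53 and H3 bodies 3 against 10.4. Taking out the fullest bodies lowers the rest by construction, and 3 is a larger part of 6 H1 genes than of 19 H2A genes. No lack of ends is therefore read from the H3 remainder. In H1 genes the body was denser than its flanks by 1.57 (1.22 to 2.01) and in H4 genes by 1.80 (1.42 to 2.25). In H3 genes the ratio was 0.599 (0.396 to 0.879), and in H2A genes under 1 kb it was 0.751 (0.528 to 1.05). In H2B genes under 1 kb it was 1.02 (0.682 to 1.49). By experiment, the H1 ratio was 2.10, 1.53 and 1.01 (0.562 to 1.75), the H4 ratio 2.40, 1.38 (0.865 to 2.14) and 1.57, and the H3 ratio 0.659 (0.296 to 1.32), 0.473 (0.217 to 0.928) and 0.699 (0.340 to 1.33). The H3 interval thus lies below 1 in experiment 2 alone. For H2A genes under 1 kb the ratio was 1.24, 0.389 and 0.715, on either side of 1. Other protein-coding genes of at most 1 kb had 0.893 (0.849 to 0.940). Core histone genes of one class are near copies of each other in their coding sequence. No source used here says how tags with several matches were treated, and the part of such tags in the H3 body values was not tested.

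**Figure D2:**
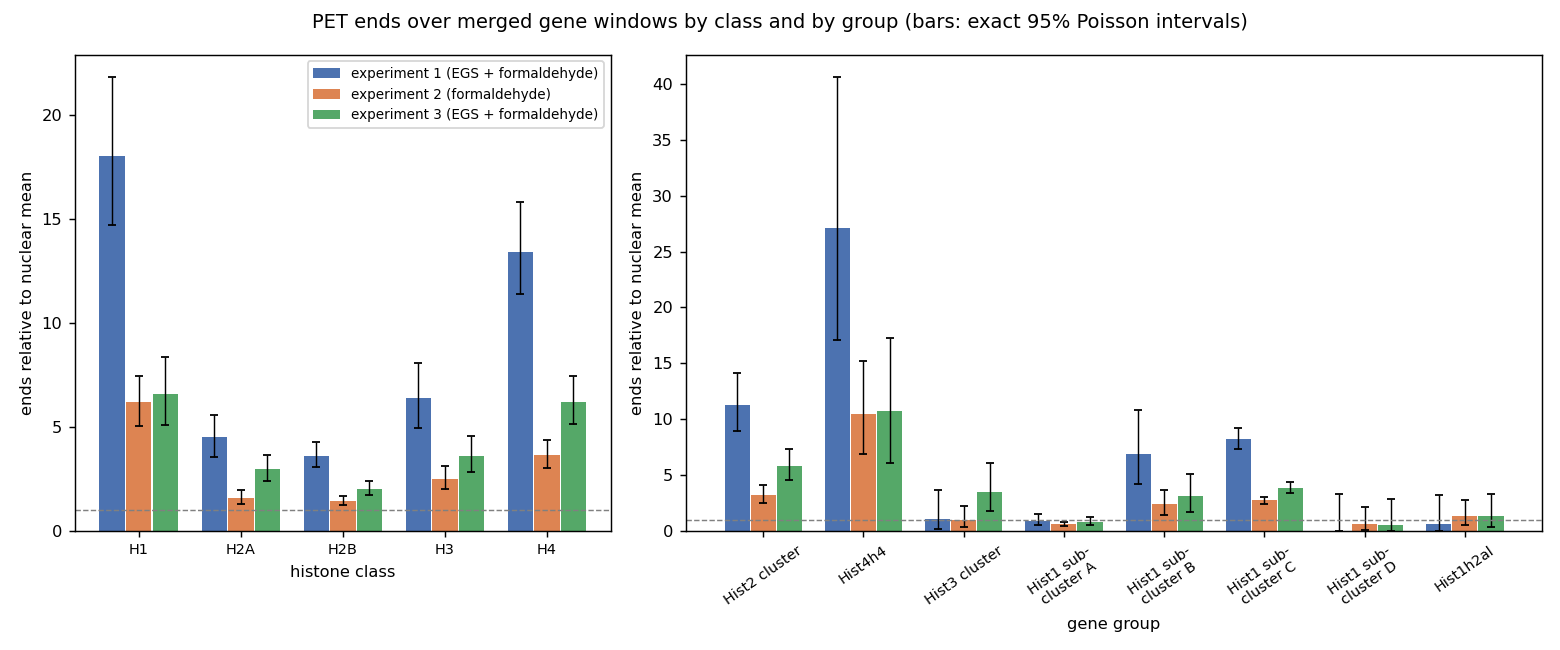
Relative density of PET ends (vertical axis, 1 being the nuclear mean) over the merged windows of each histone class (left) and of each gene group (right), with 1 bar per experiment and exact 95% Poisson intervals. H1 and H4 stand above the other classes, and Hist1 subclusters A and D lie at or below the nuclear mean.

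The groups also differed. Hist4h4 was the densest (13.4), followed by the Hist2 cluster with 5.42 (4.72 to 6.20) combined and 11.3, 3.25 and 5.82 by experiment. Hist1 subcluster C had 8.26, 2.74 and 3.86 (4.03, 3.76 to 4.31 combined), and 25 of its 29 genes reached 2 times the mean. Subcluster B had 6.90, 2.40 and 3.08 (3.38, 2.54 to 4.41), with all 5 of its genes at 2 times the mean or more. The Hist3 cluster had 1.02, 1.01 and 3.48 (1.76, 1.08 to 2.73). Subcluster D, with the testis genes Hist1h2ba and Hist1h2aa, held 0, 2 and 1 ends in all (0.465, 0.0960 to 1.36). The pseudogene Hist1h2al had 1.19 (0.616 to 2.08).

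Subcluster A stood at 0.919, 0.571 and 0.827, or 0.709 (0.558 to 0.887) combined, and 0 of its 19 genes reached 2 times the mean. With 12.2% of all nuclear genes and 7.61% of protein-coding genes of at most 1 kb at that level, nothing is read from this count alone. Some of its genes, among them the 6 with no end, share promoter runs with another gene, and their values are uncertain, as described below. The gene nearest to 2 times the mean was Hist1h2bn with 5, 2 and 3 ends, at 2.00 after rounding. Against subcluster C, the windows of subcluster A had a density ratio of 0.111 (0.0640 to 0.181), 0.208 (0.140 to 0.300) and 0.214 (0.138 to 0.319) in the 3 experiments. Subclusters A and C thus differ in all pools, and both hold genes of all 5 classes.

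Within the Hist2 cluster, the outer genes were denser than the inner ones. Hist2h2ab, Hist2h2ac and Hist2h2be at one side and Hist2h4, Hist2h3b and Hist2h2bb at the other had densities of 4.24 to 14.6. The 4 genes between them ran from 0.371 to 3.10. These 4 share long promoter runs in pairs, Hist2h3c2 with Hist2h3c1 and Hist2h2aa2 with Hist2h2aa1, and their values are uncertain, as described below. Position in the cluster and shared sequence therefore cannot be told apart here. Hist2h3c2 had 1, 5 and 2 ends (1.49), Hist2h2aa2 had 1, 3 and 5 (1.72), and Hist2h3c1 had 1, 1 and 0 (0.371). Hist2h2aa1 had 0, 5 and 11 ends (3.10, 1.77 to 5.03), most of them from experiment 3.

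In the Hist3 cluster, Hist3h2a had 2, 6 and 11 ends (3.75) and its neighbour Hist3h2bb had 2, 5 and 10 (3.41), and their windows overlap. Hist3h2ba had 0, 0 and 1 (0.201). Trim17, a ubiquitin ligase gene at the same place, overlaps the first pair and had 25, 28 and 39 ends (2.23).

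The 6 genes with no end form 2 blocks in subcluster A: Hist1h2bq, Hist1h2ao and Hist1h4m, then Hist1h4n, Hist1h2ap and Hist1h2br. Each window should have held 4.86 to 11.7 ends at the nuclear mean, and the interval of a count of 0 reaches 3.69 ends, or 0.315 to 0.759 times that mean. Around the first block a stretch of 26.4 kb (positions 21795117 to 21821506) held no end, where 53.3 were expected. The blocks hold the same 3 classes in mirrored order, and the printed Hist1h2bq and Hist1h2br promoters match letter for letter. The promoter windows of Hist1h4m and Hist1h4n share 236 of 251 possible runs of 50 bases, and those of Hist1h2ao and Hist1h2ap share 151.

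Elsewhere such shared runs joined Hist2h3c2 with Hist2h3c1 (186), Hist2h2aa2 with Hist2h2aa1 (170) and Hist1h4j with Hist1h4k (29), with no other pair among the 62 windows except overlapping ones. The 12 genes of these 6 pairs had 0.920, 0.472 and 1.45 (0.846 combined), and the other 58 had 7.13, 2.46 and 3.45 (3.57). The 58 include the genes without a promoter window, which could not be compared in this way. All 6 genes with no end were among the 12. The values of these 12 genes are therefore uncertain, since tags from exact copies can be dropped or split between them, and the part of this was not tested. Subcluster A without its 8 such genes had 0.937 combined, and 1.24 without Hist1h2bp as well.

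The windows were also set against nearby DNA. Over the 6 clusters of more than 1 gene, windows were denser than the DNA between them within a cluster by a factor of 2.82 (2.55 to 3.13) combined, and by 4.44, 2.23 and 2.56 in experiments 1, 2 and 3. Against 100 kb on the outer sides the factor was 2.60 (2.43 to 2.78). In the Hist2 cluster windows against DNA between was 4.28 (3.31 to 5.57), and in subcluster C it was 3.39 (2.98 to 3.87). In subcluster A it was 0.874 (0.646 to 1.18), so with all its windows no difference from the DNA between them was detectable at this depth. These windows include the long Hist1h2bp model and the genes that share promoter runs, and the values of the latter are uncertain. The other 10 genes of subcluster A had 1.24 combined, where the DNA between all its windows had 0.811. Whether these 10 genes differ from that DNA was not tested.

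The long stretch between subclusters B and C, 1485 kb with Vmn1r pheromone receptor genes and tRNA genes, had a density of 0.554. Hist1 windows were denser than it by 5.20 (4.80 to 5.63). The 75 Vmn1r genes there, receptors of the vomeronasal organ, had a median of 0.512, and the 45 tRNA genes, which are transcribed by RNA polymerase III, had 1.19. The tRNA gene n-TMcat9 inside subcluster C had 12, 10 and 9 ends (7.40), and it lies in the window of Hist1h4h. Hfe, the iron-regulating gene between Hist1h4c and Hist1h1c, had 10, 14 and 10 ends (1.55, 1.08 to 2.17).

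Around the starts of the 62 histone genes with a promoter entry, ends peaked in the 500 bp before the start, with each base given to its nearest start so that no end counts more than once. That bin had 16.1 (13.5 to 19.2), 5.85 (4.93 to 6.89) and 9.98 (8.40 to 11.8) times the nuclear mean in experiments 1, 2 and 3. The first 500 bp of the gene had 10.7, 2.81 and 4.04, and the bin farthest upstream, which starts 2 kb before the gene, had 2.00, 1.73 and 2.55. The intervals of the peak bin and the next bin downstream do not overlap in any experiment, although narrowly in experiment 1 (8.87 to 12.9 downstream). Many bins still reach into a neighbouring histone gene, and the part of the neighbours in this profile was not tested. Around 1295 other coding genes of at most 1 kb, the same bin had 1.18, 0.929 and 0.873. Coding genes of that length, histone genes included, had a median combined density of 0.675, against 1.31 for all protein-coding genes. Starts of longer genes were not profiled, so the peak is not shown to be particular to histone genes.

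**Figure D3:**
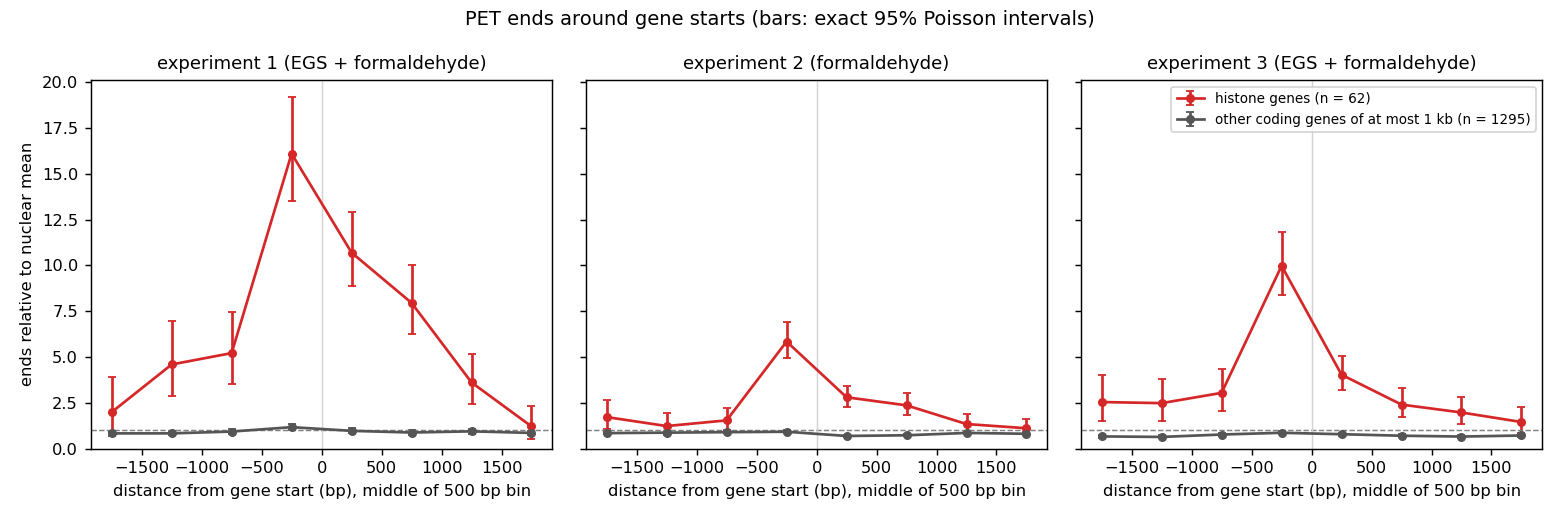
Relative density of PET ends (vertical axis, 1 being the nuclear mean) in 500 bp bins around annotated gene starts (horizontal axis, distance in bp along the gene's strand), 1 panel per experiment, with exact 95% Poisson intervals. Histone genes (62) peak just before the start at 16.1, 5.85 and 9.98, while other coding genes of at most 1 kb (1295) stay near 1.

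Histone genes outside the replication-dependent set, whose messages are made through the cell cycle, gave a comparison. Of 9 such genes, 5 had at least 2 times the mean combined (median 3.62). The share was 12.2% of all nuclear genes, 17.5% of protein-coding genes and 23.8% of those no longer than the longest histone gene model. H1f0, the linker histone H1.0 of resting cells, had 74, 48 and 49 ends and densities of 49.4, 10.6 and 18.5 (19.7 combined), next to 39.2, 15.6 and 17.5 for Hist1h1e. H2afz, for H2A.Z, had 22, 12 and 29 ends (7.03), and the H3.3 genes H3f3b and H3f3a had 5.13 and 5.04. H2afj had 3.62, and the other 4 (H2afv, H2afy, H2afy2 and H1fx) lay between 1.01 and 1.94.

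Genes of S phase and cell division were also read. Of 20, 4 had 2 times the mean or more (median 1.36), a share near the 17.5% of all protein-coding genes and the 23.8% of those no longer than the longest histone gene model: Tk1 (3.58), a thymidine kinase, Pcna (3.27), the replication clamp, Mcm7 (2.28), a helicase subunit, and Ccna2 (2.14), cyclin A2. Mki67, the proliferation marker, had 0.700, 1.39 and 1.59, and Top2a, the topoisomerase of dividing cells, had 0.518, 0.967 and 0.782. Of 10 genes for histone transcription and 3′ end processing, 3 passed (median 1.75), and nothing is read from this count beside those shares. These were Sympk (2.59), a scaffold of the cleavage machinery, Slbp (2.15), whose product binds the stem-loop, and Cpsf2 (2.04), a cleavage factor subunit. Npat had 1.62, 1.39 and 2.11 (1.65 combined). These lists hold genes much longer than histone genes, and a density is a mean over the window, so values across the lists are set side by side only.

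**Figure D4:**
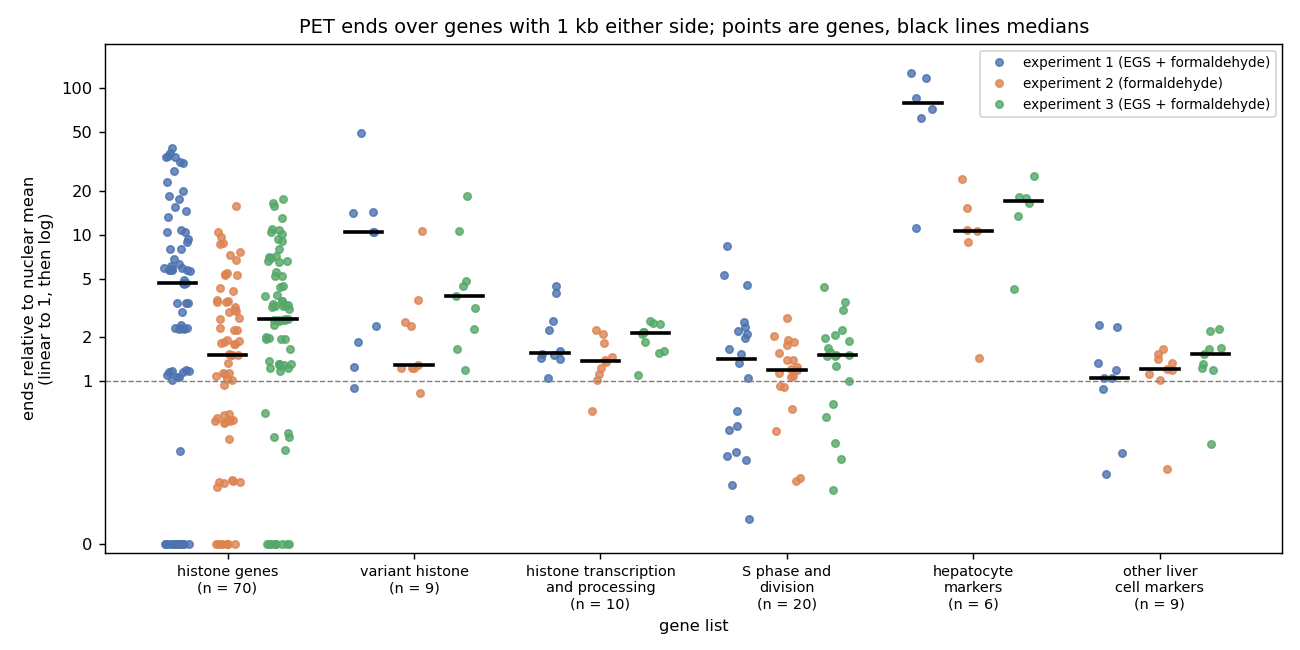
Relative density of PET ends (vertical axis, linear to 1 and logarithmic above) for single genes of 6 lists, by experiment. Points are genes and black lines are medians. Histone genes range from 0 to 39.2 in experiment 1, the hepatocyte list has the highest median in each experiment, and the S phase list has medians of 1.43, 1.21 and 1.51.

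Of all PETs, 363, 414 and 346 had an end on a histone gene. Most joined different chromosomes: 73.3%, 83.3% and 81.5%, against 73.1%, 88.7% and 80.2% of all nuclear PETs. PETs with ends at most 8 kb apart made up 21.2% (17.1 to 25.8) and 12.8% (9.74 to 16.4) in experiments 1 and 2 and 45 of 346 (9.65 to 17.0%) in experiment 3, where all nuclear PETs had 22.5%, 6.23% and 14.8%. In experiment 2 the share among histone genes was above the nuclear share by more than counting error. These shares are not like for like, because a short PET mostly has both ends on one region and counts as 1 PET. By ends, each kind against its own nuclear mean, PETs at most 8 kb apart had relative densities of 9.53, 7.58 and 4.95. Those between chromosomes had 5.21, 1.84 and 2.85, so short PETs were the denser kind over histone genes in each experiment. The 165 short PETs with both ends on histone genes spanned a median of 201 bp, and 150 of them at most 1 kb. Only 4 joined different regions, all in subcluster C. They were Hist1h4h with the Hist1h2af and Hist1h3g region (2.15 kb), Hist1h1d with Hist1h3e (7.52 kb), and the Hist1h2bc and Hist1h4c regions, once in experiment 1 (6.19 kb) and once in experiment 3 (6.16 kb). The last was the one pair of regions joined in 2 experiments.

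On one chromosome and more than 8 kb apart, 1 PET joined 2 histone gene windows. It came from experiment 1 and linked Hist1h1c (position 23739971) with the Hist1h4c promoter (23698467, within the stretch printed above), 41.5 kb apart. The number expected from the end counts alone was 0.0989, and the interval of a count of 1 is 0.0253 to 5.57. This expectation and those below take no account of distance along the chromosome. A count above them is therefore not read as a particular link. Both genes are among the densest, with 80 and 74 ends. Taking whole cluster spans in place of windows added 1 PET, between Hfe and Hist1h1c in experiment 2 (29.1 kb), against 0.158 expected for the 2. No PET joined different Hist1 subclusters (0.0615 expected), and none joined histone clusters on different chromosomes (0.124 expected). The interval of a count of 0 reaches 3.69, so contacts between subclusters were not detectable at this depth and were not shown to be absent.

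In all, 55 PETs over 8 kb left a histone gene on its own chromosome (20, 16 and 19), at a median distance of 37.3 Mb, where all such nuclear PETs had 37.6 Mb. Within 1 Mb were 5 (9.09%), with an interval that includes the 4.61% of all such PETs. By experiment these were 2 of 20, 1 of 16 and 2 of 19, against 5.83%, 2.20% and 8.22% of all. Of these, 3 lay within 100 kb: the 2 named above and a PET of experiment 3 from the Hist1h4a, Hist1h3a and Hist1h1a region to Gm11337, 39.9 kb away. A further one joined the Hist1h2bh and Hist1h3f region to Abt1, 120 kb away, in experiment 3.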

How the data were processed

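Per the labels' protocols, Pol II ChIA-PET was done on pooled mouse livers. The authors deposited 1 table of PETs without a header, with positions of both ends, the experiment and linkers (unit: other, genome positions, not a normalized signal). Mapping used Bowtie2 to mm10, per the submitters' processing notes, with no version; no source used here says how tags with several matches were handled. Columns not mapped to the series numbered 0.

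From these positions, ends were counted per RefSeq gene (GRCm38.p6) with 1 kb either side using Python 3.11.15, numpy 2.4.6, pandas 2.3.3 and scipy 1.17.1, and divided by the nuclear mean over 2722 Mb. PETs with a mitochondrial end (2265) were left out. The counting was tested on simulated ends. PETs were split at 8 kb. Expected contacts are products of end counts. No test was run between experiments, which are pools: 2 against 1 allows none.

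Genes named are the 3 densest of each class, all of Hist2, Hist3 and Hist4, the 3 lowest (6 tied at 0), those in a contact over 8 kb, genes of the lists, and other genes inside clusters. Further H1 genes, Hist1h2be, Hist1h2bn, models over 8 kb, contact partners and those that share promoter runs were named after their values were seen. Genes and lists were chosen with earlier results of these data known. Alternatives were other flanks, distance limits, duplicate treatment, backgrounds and leaving out experiments or genes.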

Additional observations from a re-analysis of the deposited data

How the results depend on the processing

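Among the 13 results varied here, which hold no density of a gene group, no density crossed to the other side of the nuclear mean. Subcluster A, outside these results, did cross. It had 0.709 combined with all its genes, and 1.24 without those that share promoter runs and without Hist1h2bp. The order of classes also changed. With models under 1 kb H2B (2.85) lay above H2A (2.66), and in subcluster C with such models H2A (3.42) lay above H3 (3.27). Of 83 values over 13 results, 35 stayed within the counting interval of the reported value (for counts, within 1.5 times) and 48 moved beyond it. With no flank the relative densities over histone genes were 5.13, 1.66 and 2.20 in experiments 1, 2 and 3 and 2.42 combined, and with a 2.5 kb flank 4.74, 1.84, 2.68 and 2.60. Ends of PETs at most 8 kb apart gave 9.53, 7.58, 4.95 and 7.22, and ends of PETs between chromosomes 5.21, 1.84, 2.85 and 2.65. The combined density was 2.54 without experiment 1, 4.29 without experiment 2 and 3.63 without Hist1h2be, the gene with the most ends. Chosen after seeing the data, it was 3.45 without the 6 genes with no end, 3.57 without the 12 that share promoter runs and 3.99 without the 3 models over 8 kb. Fewer genes or experiments make up these differences by construction, and the cause was otherwise not tested.

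The class values were also recomputed with alternatives chosen after seeing the data. Without experiment 1, H1, H2A, H2B, H3 and H4 had 6.32, 2.11, 1.66, 2.90 and 4.59, and without experiment 2 they had 10.7, 3.53, 2.60, 4.61 and 8.83. In Hist1 subcluster C alone H1 had 9.85, H2A 3.42, H2B 2.33 and H4 8.43. H2B models under 1 kb gave 2.85, and those in subcluster C gave 3.22. The share of genes at 2 times the nuclear mean or more was 17.5% for protein-coding genes, 23.8% for those no longer than the longest histone gene and 7.61% for those of at most 1 kb. The 1 contact over 8 kb became 4 with a minimum of 4 kb, 0 with no flank, 2 with whole subclusters and 0 without experiment 1. No paired analysis was possible because the deposited rows name no library, and the results come from no test. A window of 2.5 kb holds about 1 expected end in experiment 1, so single genes near the nuclear mean are not resolved there.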
